A study of Mus musculus with 2 samples.

Results

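The fibrillar collagens and the enzymes that crosslink them were followed in infarcted newborn mouse hearts through 10 genes, chosen by symbol: Col1a1, Col1a2, Col3a1, Col5a1, Col5a2, Col8a1, Col12a1, Lox, Loxl1 and Loxl2. All 10 were found among the 32285 genes of the deposited feature tables, and all 10 passed the minimum of 100 UMIs in both sections together that left 11455 genes for comparison. Transcripts were counted with Visium, in which RNA from a frozen section is captured on an array of barcoded spots, each covering a small region of several cells and not a single cell. There was 1 transverse section from a PD1 KO heart (PD1 -/-) and 1 from a PD1 Het heart (PD1 +/-), both C57BL/6. Both mice had the left anterior descending artery ligated at postnatal day 2, so the PD1 Het animal was infarcted as well, and both hearts were taken 7 days later. Sections of 10 µm were cut 200 µm below the suture. PD1 is an inhibitory receptor of activated T cells, and the comparison asks how the infarcted neonatal heart differs when both copies of its gene are lost and not just 1. The labels do not say how the allele was made, and uninjured hearts and wild-type hearts were not analysed here.

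Type I collagen is the main load-bearing fibril of a scar, assembled from the chains made by Col1a1 and Col1a2. Type III, a homotrimer of the Col3a1 product, forms thinner fibrils together with type I and is typical of early granulation tissue and of compliant organs. Type V chains (Col5a1, Col5a2) sit inside these fibrils, where they start assembly and limit the diameter. Type XII (Col12a1) is a fibril-associated collagen that binds the fibril surface, and type VIII (Col8a1) is a short-chain collagen that forms networks, so neither is itself a fibrillar collagen. Lysyl oxidase (Lox) and the related enzymes Loxl1 and Loxl2 oxidise lysines of collagen and elastin, which lets the fibres become covalently crosslinked. In the heart these genes are mainly expressed by fibroblasts and, after infarction, by the activated fibroblasts of the scar.

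The PD1 KO section kept 851 of 859 spots with 23520499 UMIs (median 27134 per spot), and the PD1 Het section 811 of 812 spots with 12814494 UMIs (median 15475). A UMI marks 1 captured RNA molecule at its 3′ end, so levels are CPM, the UMIs of a gene scaled to all UMIs of the section, and were not divided by gene length. Mitochondrial genes took 15.9% of UMIs in the PD1 KO section and 25.6% in the PD1 Het section. The median of the 11455 genes lay 1.26-fold higher in the PD1 KO section by CPM (0.33 on the log2 scale), and ratios called relative are set against this median gene. The sections also differed in sex-linked RNA, with 1 Xist UMI in PD1 KO against 541 in PD1 Het. Pdcd1, which encodes PD1, had 0 UMIs in both, which allows up to 0.128 CPM in PD1 KO and 0.234 CPM in PD1 Het and so checks neither label. The sections shared 225 spot barcodes. With 1 section per genotype there is no replicate and no test. Genotype, sex, sequencing depth, mitochondrial share and the cut of the section cannot be told apart, and every interval below is a 95% interval for counting error only.

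The account turns on the balance of type I and type III collagen, so the bases upstream of a gene of each are shown. RefSeq windows (GRCm38.p6) were at hand for 4 of the 10 genes: Col1a2, Col3a1, Col5a1 and Col8a1. The 250 bases before the start in the RefSeq window are given 5′ to 3′ on the gene's strand, with capitals for matches on either strand to 4 motifs. These are CCAAT, bound by NF-Y, then the common TATA box TATAAA, then the SMAD-binding box CAGAC, and last the GC box GGGCGG.
Col1a2 (chr6:4505368-4505617, plus strand): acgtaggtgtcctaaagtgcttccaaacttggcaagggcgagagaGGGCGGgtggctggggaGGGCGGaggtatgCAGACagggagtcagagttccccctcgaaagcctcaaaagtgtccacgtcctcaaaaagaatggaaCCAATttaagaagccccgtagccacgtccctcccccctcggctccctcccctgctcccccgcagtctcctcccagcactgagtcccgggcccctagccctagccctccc
Col3a1 (chr1:45311288-45311537, plus strand): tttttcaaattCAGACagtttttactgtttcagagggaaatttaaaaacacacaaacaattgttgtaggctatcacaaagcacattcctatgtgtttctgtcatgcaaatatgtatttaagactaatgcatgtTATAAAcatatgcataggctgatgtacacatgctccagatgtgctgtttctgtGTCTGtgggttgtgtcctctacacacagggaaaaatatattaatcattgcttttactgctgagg
The Col1a2 window held 4 matches, 2 of GGGCGG, 1 of CAGAC and 1 of CCAAT. The Col3a1 window held 3 matches, 1 of TATAAA and 2 of CAGAC, 1 of them on the opposite strand as GTCTG. No matches overlapped. Among 32851 windows of the same length, 33.8% held CCAAT, 12.4% TATAAA, 42.2% CAGAC and 32.7% GGGCGG. A match describes these letters and is not a shown binding site. The RefSeq start of Col1a2 lies inside the gene as GENCODE annotates it, downstream of the GENCODE start, so its window is upstream of the RefSeq start only.

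The genes as a group were higher in the PD1 KO section, unevenly. They made up 5719 CPM in PD1 KO and 3982 CPM in PD1 Het, which is 0.19 (0.18 to 0.21) on the log2 scale relative to the median gene. Without the highest twentieth of spots by scar rank, defined below, this value was 0.11, and with each spot thinned to 10000 UMIs it was 0.37. By CPM 9 of 10 were higher in PD1 KO, and relative to the median gene 7 of 10 were, each with an interval above 0. Above the median gene by 1.5-fold or more were 2 of 10, Col12a1 and Col8a1, as 5.5% of the 11455 genes were, and below it by as much 0 of 10, as 3.3% were. The median relative log2 ratio of the 10 was 0.42, beside 0 for all genes by construction. How many passed 1.5-fold depended on the scaling: 6 did by CPM without the shift, namely Col1a1, Col1a2, Col5a2, Col8a1, Col12a1 and Loxl2.

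**Figure D1:**
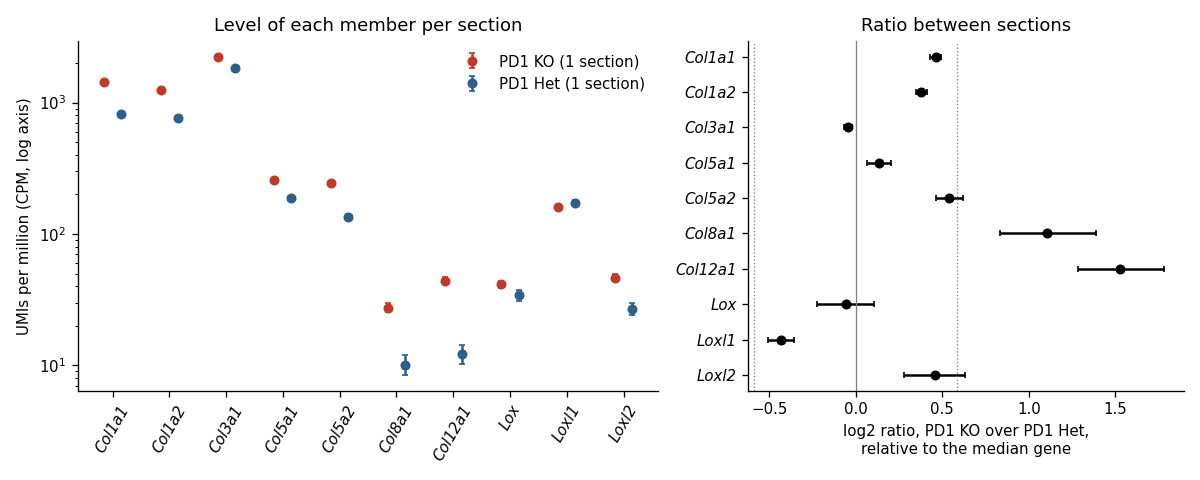
Left, CPM of each gene on a log axis in the PD1 KO section and the PD1 Het section, with 95% counting intervals. Right, the log2 ratio of PD1 KO over PD1 Het relative to the median gene, where dotted lines mark 1.5-fold; Col8a1 and Col12a1 lie beyond the upper line and Loxl1 lies lowest at -0.43.

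Both chains of type I collagen were higher in the PD1 KO section. Col1a1 (ENSMUSG00000001506, chr11:94936224-94953042, GRCm38) had 33519 UMIs or 1425 CPM (1410 to 1440) in PD1 KO and 10527 UMIs or 821 CPM (806 to 837) in PD1 Het, a relative log2 ratio of 0.46 (0.43 to 0.50). Col1a2 (ENSMUSG00000029661, chr6:4504814-4541544) had 1243 CPM in PD1 KO and 759 CPM in PD1 Het, a relative log2 ratio of 0.38 (0.35 to 0.41). The 2 chains stood in a ratio of 1.15 Col1a1 to Col1a2 UMIs in PD1 KO and 1.08 in PD1 Het, a log2 difference of 0.08 (0.04 to 0.13). Capture can differ between genes, so a ratio of genes is compared between sections and not read as a ratio of molecules.

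Col3a1 (ENSMUSG00000026043, chr1:45311538-45349706) was the most abundant of the 10 in both sections, and it did not share the difference of type I. It had 52304 UMIs or 2224 CPM (2205 to 2243) in PD1 KO and 23344 UMIs or 1822 CPM (1798 to 1845) in PD1 Het. Relative to the median gene this was -0.04 (-0.07 to -0.02), with the opposite sign by CPM alone (0.29), without mitochondrial genes in the total (0.11) and against the median of genes with at least 1000 UMIs (0.01). Of all UMIs of the 10 genes, Col3a1 held 38.9% in PD1 KO and 45.8% in PD1 Het.

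The chains of type V differed from each other. Col5a2 (ENSMUSG00000026042, chr1:45374321-45503282) had 246 CPM in PD1 KO and 135 CPM in PD1 Het, a relative log2 ratio of 0.54 (0.46 to 0.62) that is close to type I. Col5a1 (ENSMUSG00000026837, chr2:27886425-28039514) had 259 CPM in PD1 KO and 188 CPM in PD1 Het, a relative log2 ratio of 0.13 (0.06 to 0.20). Col5a1 over Col5a2 was therefore 1.05 (1.01 to 1.09) in PD1 KO and 1.39 (1.31 to 1.48) in PD1 Het. In the common type V heterotrimer the Col5a1 product supplies a pair of chains and the Col5a2 product the remaining one, and these counts say nothing of assembled protein.

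The non-fibrillar members showed the widest gap between the sections. Col12a1 (ENSMUSG00000032332, chr9:79598991-79718831) had 1040 UMIs or 44.2 CPM (41.6 to 47.0) in PD1 KO and 156 UMIs or 12.2 CPM (10.3 to 14.2) in PD1 Het, a relative log2 ratio of 1.53 (1.29 to 1.78). Col8a1 (ENSMUSG00000068196, chr16:57624258-57754737) had 646 UMIs or 27.5 CPM in PD1 KO and 130 UMIs or 10.1 CPM in PD1 Het, a relative log2 ratio of 1.11 (0.83 to 1.39). Both are low-abundance transcripts, and their share of type I UMIs was also higher in PD1 KO. For Col12a1 the ratio to type I was 0.0166 in PD1 KO and 0.00770 in PD1 Het, a log2 difference of 1.11 (0.86 to 1.35).

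The 3 lysyl oxidases went different ways. Loxl1 (ENSMUSG00000032334, chr9:58287738-58313186), which acts chiefly on elastic fibres in mice, was the most abundant of them and the only one of the 10 genes that was lower by CPM in the PD1 KO section. It had 162 CPM (157 to 167) in PD1 KO and 173 CPM (166 to 181) in PD1 Het, a relative log2 ratio of -0.43 (-0.51 to -0.35). Lox (ENSMUSG00000024529) had 976 UMIs or 41.5 CPM in PD1 KO and 440 UMIs or 34.3 CPM in PD1 Het. Its relative log2 ratio was -0.06, with an interval of -0.22 to 0.11 that covers both directions, and it was 0.27 by CPM alone and 0.09 without mitochondrial genes in the total. Loxl2 (ENSMUSG00000034205, chr14:69609068-69695834), an enzyme of type IV as well as fibrillar collagen crosslinking, had 46.6 CPM in PD1 KO and 27.0 CPM in PD1 Het, a relative log2 ratio of 0.46 (0.28 to 0.63). Loxl1 over Loxl2 was 3.47 (3.25 to 3.72) in PD1 KO and 6.42 (5.73 to 7.21) in PD1 Het.

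Counted against type I and III collagen, lysyl oxidase transcripts were fewer in the PD1 KO section, though their own sum was not lower by CPM. That sum was 250 CPM in PD1 KO and 235 CPM in PD1 Het, 1.06-fold (1.02 to 1.11), or -0.24 on the log2 scale relative to the median gene. Type I and III collagens together were 1.44-fold higher in PD1 KO by CPM. There were 5.11 (4.97 to 5.24) UMIs of Lox, Loxl1 and Loxl2 together per 100 UMIs of type I and III collagen in PD1 KO and 6.90 (6.64 to 7.16) in PD1 Het, a log2 difference of -0.43 (-0.50 to -0.37). Loxl1 carried this difference, since Lox and Loxl2 together stood at 1.80 per 100 in both sections. Loxl2 by itself was higher against these collagens in PD1 KO (log2 difference 0.26, 0.09 to 0.44) and Lox was lower (-0.25, -0.41 to -0.09).

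Some of these counts rest on sequence or positions that other genes share. Among the 31-base stretches in the last 400 bases of each transcript, 18.5% for Loxl2, 3.38% for Col5a1 and 0.42% for Col5a2 also occurred on the same strand in transcripts of other genes, and for the other 7 genes none did. Reads from such stretches could be dropped or split, which makes the Loxl2 level the least certain. Annotated genes overlap on the same strand at Col1a2 (Gm43921), Col3a1 (Gm47302), Col5a2 (Gm38211) and Loxl2 (Mir6950). Genes on the opposite strand overlap at Col5a1, Col12a1, Lox and Loxl2, and no source used here states whether the counting was by strand.

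The type I over type III ratio, taken as Col1a1 and Col1a2 UMIs over Col3a1 UMIs, was 1.20 (1.19 to 1.21) in the PD1 KO section and 0.868 (0.851 to 0.884) in the PD1 Het section. The log2 difference was 0.47 (0.44 to 0.50). A ratio of genes within a section does not depend on the scaling between sections. It does depend on where in the section it is taken. Spots were therefore ranked by how much of their RNA came from 9 other genes, none of them among the 10. These scar rank genes, chosen as genes of the infarct scar, were Postn, Fn1, Tnc, Thbs1, Cthrc1, Fbn1, Fstl1, Ccn2 and Timp1. A high scar rank means a high share of these transcripts, and spot positions were not used to place such spots in the scar. Each section was cut into 5 rank groups of equal spot number, from group 1 (lowest scar rank) to group 5 (highest).

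In PD1 KO, from rank group 1 to rank group 5, the ratio was 0.904, 0.863, 0.903, 0.968 and 1.71. In PD1 Het, in the same order, it was 0.798, 0.834, 0.762, 0.782 and 0.996. The ratio thus stayed nearly level over most spots of both sections, and the gap between the sections was widest in rank group 5 (log2 difference 0.78, 0.73 to 0.83), against 0.21 (0.17 to 0.25) over the other 4 groups together. In rank group 2 the interval of the difference was -0.04 to 0.13, which covers both directions. Cut finer, the highest of 20 groups of spots reached 2.41 (2.34 to 2.48) in 43 PD1 KO spots and 1.17 (1.12 to 1.23) in 41 PD1 Het spots.

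Equal ranks do not mean the same share of scar rank UMIs in both sections. The highest of these groups held 123 scar rank UMIs per 10000 in PD1 KO and 64.2 in PD1 Het. At rank values common to both, in spots above 27.5 scar rank UMIs per 10000, the ratio was 1.57 (1.54 to 1.60) over 222 PD1 KO spots and 1.03 (0.99 to 1.06) over 111 PD1 Het spots. The difference between sections was therefore also present at the same range of rank values, though within that range the PD1 KO spots reached higher values.

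**Figure D2:**
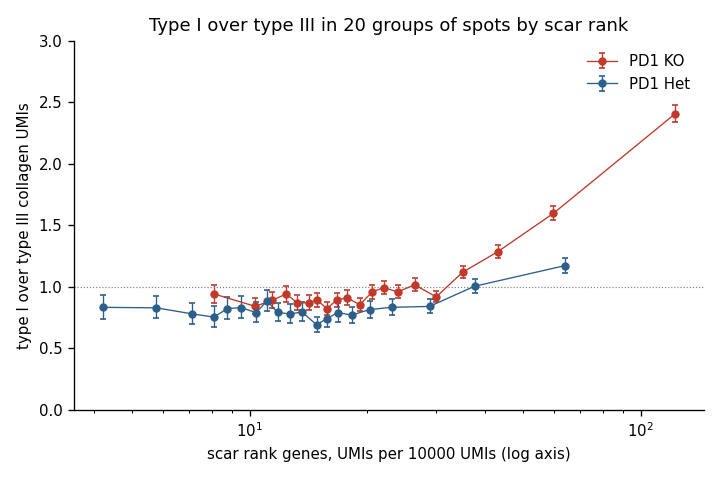
Type I over type III collagen UMIs (vertical axis) in 20 groups of the spots of the PD1 KO section and the PD1 Het section, placed at their scar rank UMIs per 10000 UMIs (horizontal log axis), with 95% counting intervals. Both sections lie mostly between 0.7 and 1 at low rank, and the PD1 KO section reaches 2.41 in its highest group against 1.17 in the PD1 Het section.

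The other ratios also changed along the scar rank. Type V over type I was 0.189 (0.186 to 0.193) in PD1 KO and 0.204 (0.197 to 0.211) in PD1 Het over all spots, a log2 difference of -0.11 (-0.16 to -0.05). In rank group 5 it was 0.155 in PD1 KO and 0.188 in PD1 Het, while over the other 4 groups it was 0.225 in PD1 KO and 0.216 in PD1 Het, with an interval of the log2 difference of -0.01 to 0.13. That interval covers both directions, so the lower type V ratio of PD1 KO was not seen over these groups together. The log2 difference was 0.17 (0.0006 to 0.33) in rank group 1 and 0.20 (0.05 to 0.36) in rank group 2, higher in PD1 KO. In rank groups 3 and 4 it was 0.03 (-0.12 to 0.17) and -0.08 (-0.21 to 0.05). Col5a1 over Col5a2 was 0.828 in PD1 KO and 1.26 in PD1 Het in rank group 5, and 1.30 in PD1 KO and 1.34 in PD1 Het in rank group 1. Lysyl oxidases per 100 type I and III UMIs were 4.48 in PD1 KO and 7.50 in PD1 Het in rank group 5, and 5.60 in PD1 KO and 6.50 in PD1 Het over the other 4 groups.

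All 10 genes were concentrated in the spots of highest scar rank in both sections. Each was at least 1.5-fold higher in rank group 5 than in the other spots, in PD1 KO and in PD1 Het alike, where 16.7% of all genes tested were so in PD1 KO and 24.3% in PD1 Het. The median fold of the 10 was 4.74 in PD1 KO, beside 1.16 for all genes, and 3.58 in PD1 Het, beside 1.22 for all genes. Rank group 5 held 43.9% of the UMIs of the 10 genes in PD1 KO and 39.9% in PD1 Het. This difference of 4.02 percentage points depended on the ranking. With spots ranked by fibroblast markers it was -0.08 points (-0.57 to 0.41), at 36.6% in PD1 KO and 36.7% in PD1 Het.

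The genes differed in how steeply they followed the scar rank. Col12a1 was the steepest in both sections, with 203 CPM in rank group 5 and 12.3 CPM elsewhere in PD1 KO, a 16.6-fold difference (14.3 to 19.2), and with 46.4 CPM and 5.09 CPM in PD1 Het, a 9.11-fold difference (6.49 to 12.9). Col8a1 followed with 6.67-fold in PD1 KO and 5.29-fold in PD1 Het. Col1a1 was 5.09-fold higher in rank group 5 in PD1 KO and 3.54-fold in PD1 Het, and Col1a2 5.26-fold in PD1 KO and 3.62-fold in PD1 Het. Col3a1 was only 2.77-fold higher in PD1 KO and 2.84-fold in PD1 Het, so it had a like slope in both sections. Loxl1 was less steep in PD1 KO, at 2.92-fold (2.73 to 3.12) in PD1 KO against 3.71-fold (3.41 to 4.03) in PD1 Het. Loxl2 was the flattest in both, at 2.43-fold in PD1 KO and 2.19-fold in PD1 Het.

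From rank group 1 to rank group 5, Col1a1 had 579, 698, 863, 1291 and 4307 CPM in PD1 KO, and 426, 581, 601, 704 and 2024 CPM in PD1 Het. Over the same groups Col3a1 had 1167, 1527, 1780, 2477 and 4751 CPM in PD1 KO, and 1006, 1300, 1524, 1767 and 3935 CPM in PD1 Het. Both genes were higher in each group than in the one before, with the largest step between groups 4 and 5, and that step of Col1a1 was taller in PD1 KO. Loxl1 had 78.5 CPM in rank group 1 of PD1 KO and 77.1 CPM in that of PD1 Het, and 357 CPM in rank group 5 of PD1 KO against 439 CPM in that of PD1 Het. By CPM its level outside rank group 5 was 1.03-fold that of PD1 Het (0.97 to 1.11). Relative to the median gene of the whole sections it was lower in PD1 KO in all 5 groups, at -0.31, -0.48, -0.30, -0.13 and -0.63 on the log2 scale from group 1 to group 5.

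**Figure D3:**
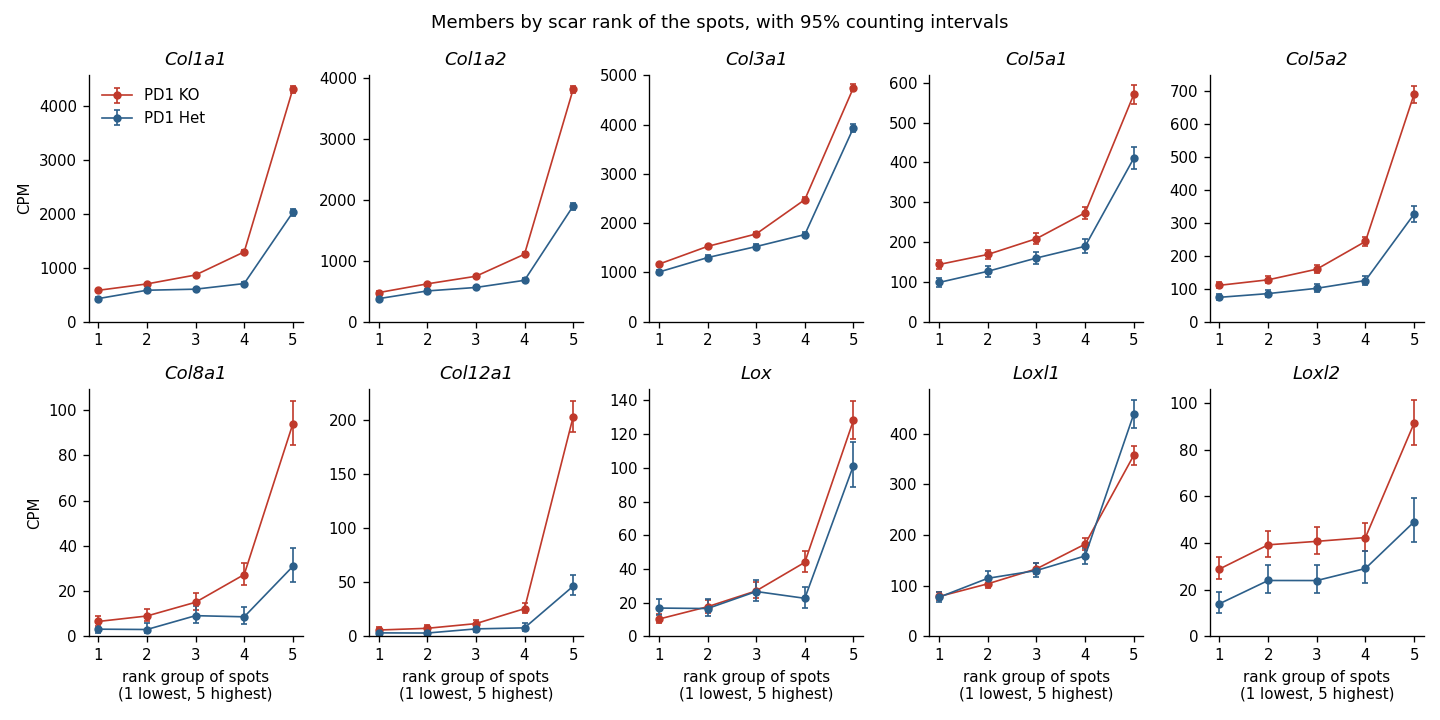
CPM of each gene (vertical axes, each from 0) in 5 groups of spots from the lowest to the highest scar rank (horizontal axes) in the PD1 KO section and the PD1 Het section, with 95% counting intervals. Every gene is highest in the last group in both sections; Loxl1 is the gene for which PD1 Het lies above PD1 KO there, at 439 against 357 CPM.

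Spread between spots, beyond what counting alone gives, was widest for Col12a1. The coefficient of variation of Col1a1 between spots was 1.27 in PD1 KO and 0.93 in PD1 Het, that of Col12a1 was 3.10 in PD1 KO and 2.42 in PD1 Het, and that of Col3a1 was 0.66 in PD1 KO and 0.92 in PD1 Het. The Col3a1 value of PD1 Het leaned on 1 spot with 490 Col3a1 UMIs and was 0.77 without it. With PD1 KO counts thinned to the PD1 Het total of each gene, the fewest spots that held 50% of Col1a1 UMIs were 139 of 851 in PD1 KO and 160 of 811 in PD1 Het. For Col3a1 they were 233 in PD1 KO and 192 in PD1 Het, and for Col12a1 20 in PD1 KO and 27 in PD1 Het. Col1a1 was thus held in fewer spots than Col3a1 in both sections, and in PD1 KO the gap between these genes was wider.

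Spots with at least 1 UMI were compared after each spot was thinned to 10000 UMIs, which left 839 PD1 KO and 759 PD1 Het spots. Col12a1 was then seen in 19.2% of spots (16.6 to 22.0) in PD1 KO and 8.04% (6.20 to 10.2) in PD1 Het, and without thinning in 34.1% in PD1 KO and 12.2% in PD1 Het. Col8a1 was seen in 17.6% of thinned PD1 KO spots and 8.70% of thinned PD1 Het spots, and without thinning in 35.8% in PD1 KO and 12.7% in PD1 Het. In rank group 1 Col12a1 stood at 5.77 CPM in PD1 KO and 3.14 CPM in PD1 Het, levels at which RNA spread from other spots was not separated from local RNA.

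Marker genes of cell types also differed between the sections. Summed fibroblast markers (10 of 10 detected) stood at 2176 CPM in PD1 KO and 2066 CPM in PD1 Het, -0.26 relative to the median gene. In rank group 5 they stood at 3765 CPM in PD1 KO and 4165 CPM in PD1 Het. The markers did not move together. Relative to the median gene, Tcf21 lay at 0.37 (0.20 to 0.55) and Pdgfra at 0.13 (-0.04 to 0.29). Dcn lay at -0.23 and Pi16 at -1.02. Per summed fibroblast marker UMI there were 2.63 UMIs of the 10 genes in PD1 KO and 1.93 in PD1 Het. Of type I alone there were 1.23 in PD1 KO and 0.765 in PD1 Het. These values depend on the markers: by CPM Tcf21 was 1.63-fold and Pdgfra 1.37-fold higher in PD1 KO, beside 1.44-fold for the 10 genes. Most of the fibroblast markers lay below the median gene, with a median of -0.22. By CPM Dcn was 1.08-fold and Pi16 0.62-fold the PD1 Het level. Macrophage markers (10 of 10 detected) stood at 967 CPM in rank group 5 of PD1 KO and 566 CPM in that of PD1 Het. They did not differ evenly. Lyz2 (358 CPM in PD1 KO against 166 CPM in PD1 Het) and Ctss (107 against 20.9 CPM) held much of this gap. Csf1r alone was lower there in PD1 KO (41.6 against 47.3 CPM). Summed smooth muscle and myofibroblast markers (6 of 6 detected) were 728 CPM in PD1 KO and 647 CPM in PD1 Het, -0.16 relative to the median gene. These too did not move together. Cnn1 lay at 1.81 and Tagln at 0.39, while Myl9 lay at -0.14, Myh11 at -0.16, Acta2 at -0.27 and Lmod1 at -0.68. Red blood cell genes made up 4723 CPM in rank group 5 of PD1 KO and 10316 CPM in that of PD1 Het. Mitochondrial genes took 11.3% of the UMIs of rank group 5 in PD1 KO and 18.2% in PD1 Het. The part of these differences in the collagen values was not tested, and in spots that hold several cells, more cells of a type and more RNA per cell cannot be told apart.

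At the level of single spots the type I over type III ratio could be read where both types together had at least 50 UMIs, in 780 PD1 KO spots and 290 PD1 Het spots. Its median was 0.938 in PD1 KO and 0.869 in PD1 Het, and it ranged up to 7.16 in PD1 KO and 11.0 in PD1 Het. The ratio was above 1 in 324 of these PD1 KO spots and 102 of these PD1 Het spots. The ratio was above 2 in 63 PD1 KO spots and 23 PD1 Het spots, of which 55 in PD1 KO and 22 in PD1 Het lay in rank group 5. These counts cannot be compared as shares of the sections, since depth set how many spots reached 50 UMIs. Of the 23 PD1 Het spots, 10 had under 5000 UMIs and held all 55 Saa3 UMIs of that group (an acute-phase gene), and they were set aside below, which left 13. None of the 63 PD1 KO spots was that shallow, and they held 47 Saa3 UMIs.

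The spots with a ratio above 2 held more of several other transcripts in both sections, described here without a test because the spots were picked by their ratio and the genes after their values were seen. Col12a1 stood at 433 CPM in these PD1 KO spots and 21.5 CPM in the PD1 KO spots with lower ratios, 20.1-fold (17.7 to 22.8), and the 63 spots held 57.0% of its UMIs in the section. In PD1 Het it stood at 181 CPM in the 13 spots and 14.8 CPM in those with lower ratios, 12.2-fold (7.70 to 18.8). Tnmd, a membrane protein of tendons and heart valve cords, stood at 66.4 CPM against 1.52 CPM in PD1 KO and at 69.9 CPM against 1.91 CPM in PD1 Het. Its PD1 Het values rest on only 12 UMIs against 9 (36.6-fold, 14.2 to 98.4). Fmod, a proteoglycan that binds collagen fibrils, was 22.9-fold higher in these spots in PD1 KO and 21.4-fold in PD1 Het. Comp, a fibril-binding matrix protein, was 29.4-fold higher in PD1 KO (19.4 to 45.2) and 19.8-fold in PD1 Het (10.2 to 37.7), there on 18 UMIs against 25. Col11a1 and Col8a2, collagens of the lists below, were also higher: Col11a1 was 23.5-fold higher in PD1 KO and 7.85-fold (3.76 to 15.2) in PD1 Het, and Col8a2 25.4-fold in PD1 KO and 13.7-fold in PD1 Het. Lox was 5.36-fold higher in these PD1 KO spots (4.63 to 6.19), and in PD1 Het the fold had an interval of 0.81 to 2.57. With the 10 shallow PD1 Het spots kept, Lox was 1.92-fold higher, with an interval that began at 1.17. Setting them aside left a smaller fold in the same direction, on fewer Lox UMIs. Its interval then covered both directions, so a Lox difference in PD1 Het was left uncertain. Summed fibroblast markers were 1.29-fold higher in PD1 KO and 1.05-fold in PD1 Het. Macrophage markers were 2.29-fold higher in these PD1 KO spots and 1.11-fold in PD1 Het, and smooth muscle and myofibroblast markers 1.93-fold in PD1 KO and 1.25-fold in PD1 Het. Epicardial markers stood at 3.74-fold in PD1 KO and 0.66-fold in PD1 Het (0.18 to 1.73), and endothelial markers at 0.64-fold in PD1 KO and 0.63-fold in PD1 Het. With the shallow PD1 Het spots kept, macrophage markers were 1.57-fold and epicardial markers 2.18-fold higher in PD1 Het. The part of these markers in the collagen values of these spots was not tested.

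**Figure D4:**
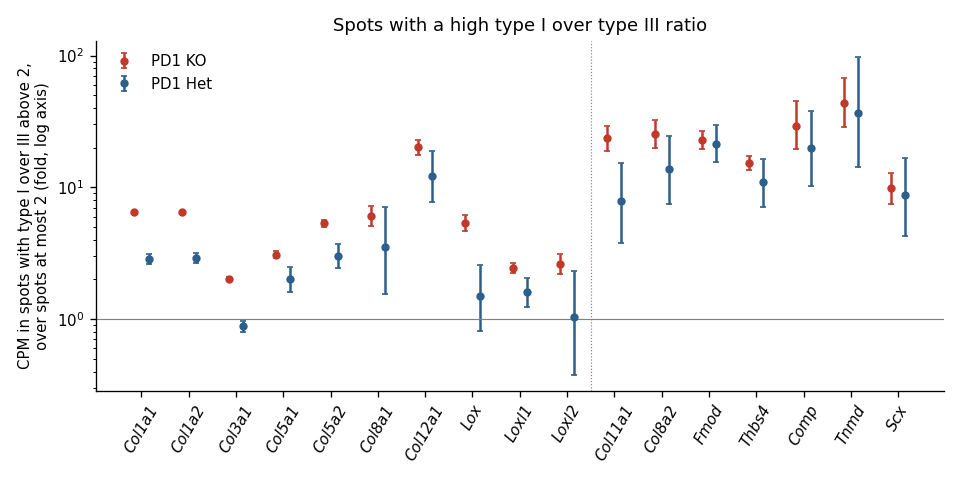
Fold difference in CPM (log axis) between spots with a type I over type III ratio above 2 and spots with a ratio of at most 2, for the 10 genes and, right of the dotted line, 7 genes picked after their values were seen, in the PD1 KO section (63 spots above 2) and the PD1 Het section (13 spots with at least 5000 UMIs). Bars are 95% counting intervals; Col1a1, Col1a2 and Col3a1 define the ratio. Col12a1 is 20.1-fold higher in PD1 KO and 12.2-fold in PD1 Het.

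Nppa and Myh7, also picked after their values were seen, were higher in these spots, while the listed cardiomyocyte markers were not. Nppa, which encodes atrial natriuretic peptide, stood at 20654 CPM in the 63 spots and 994 CPM in the spots with lower ratios, and in PD1 Het at 4554 CPM in the 13 spots and 494 CPM in the others. Myh7, the slow myosin heavy chain of fetal and stressed ventricle, was 15.6-fold higher in PD1 KO and 4.56-fold in PD1 Het. Summed cardiomyocyte markers were lower in these PD1 KO spots, at 37925 CPM against 52086 CPM, and about level in PD1 Het, at 46858 CPM against 46867 CPM. Cartilage and bone markers, of which 2 of 7 had no UMI in either section, stood at 76.6 CPM against 6.02 CPM in PD1 KO and at 140 CPM against 11.7 CPM in PD1 Het, and Comp made up most of them. Most spots with a ratio above 2 lay in rank group 5, so that group was not shown to be infarct scar alone.

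Across spots the 10 genes tracked each other to different degrees, described here with Pearson's r of log values over the 839 PD1 KO and 759 PD1 Het thinned spots, which share library and depth. In PD1 KO the chains of type I were the closest pair, with r of 0.82, against 0.66 in PD1 Het. In PD1 Het Col1a1 with Col3a1 was the closest, with r of 0.76 in PD1 KO and 0.70 in PD1 Het. Loxl2 was the loosest member, with r to Col1a1 of 0.21 in PD1 KO and 0.08 in PD1 Het. Among 7192 other genes, the 10 whose pattern over the 851 PD1 KO and 811 PD1 Het spots was most like that of the summed genes, by the lower r of the sections, were Mgp, Sparc, Bgn, Lum, Postn, Mfap4, Eln, Ptn, Fn1 and Igfbp4. Their r was 0.59 to 0.87 in PD1 KO and 0.59 to 0.74 in PD1 Het, and Postn and Fn1 are among the scar rank genes. Mgp, an inhibitor of calcification, had 0.79 in PD1 KO and 0.74 in PD1 Het, and Sparc, a collagen-binding matrix protein, had 0.87 in PD1 KO and 0.73 in PD1 Het.

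The rest of the collagen pathway was read from 2 lists. Of 13 other fibrillar, fibril-associated and related collagens, 12 had at least 30 UMIs. Above the median gene by 1.5-fold or more were 3 of them (25%, beside 5.5% of the 11455 genes) and below it 0 (beside 3.3%), with a median relative log2 ratio of 0.07. The minimums differ, since the 11455 genes had at least 100 UMIs. Col24a1, 1 of the 3, had only 77 UMIs in both sections together, and Col11a2, another of the 12, had 65. Col11a1, a fibrillar collagen of cartilage and tendon that also occurs in valves, had 373 UMIs in PD1 KO and 68 in PD1 Het, a relative log2 ratio of 1.25 (0.87 to 1.64). Col8a2, the partner chain of Col8a1, had 287 UMIs in PD1 KO and 78 in PD1 Het, or 0.67 (0.31 to 1.05). Col24a1, a minor fibrillar collagen, had 60 UMIs in PD1 KO and 17 in PD1 Het, with an interval of -0.18 to 1.48, and Col27a1, another minor fibrillar chain, lay at 0.56 (0.26 to 0.87). The most abundant of the list were level: Col6a1, Col6a2 and Col6a3, the chains of the beaded-filament collagen, lay at 0.07, 0.02 and 0.01, and Col15a1, a basement membrane collagen, at -0.05, which was 0.28 by CPM alone.

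Of 30 genes that modify, fold, secrete, trim or degrade collagen, 27 had at least 30 UMIs. Above the median gene by that fold was 1 of them and below it 1, which is near the 5.5% and 3.3% of the 11455 genes, with a median of 0.03. Plod2, the lysyl hydroxylase of collagen telopeptides, had 655 UMIs or 27.8 CPM in PD1 KO and 137 UMIs or 10.7 CPM in PD1 Het, a relative log2 ratio of 1.05 (0.78 to 1.33). Fkbp10, a prolyl isomerase of the endoplasmic reticulum that acts with Plod2, lay at the other end, with 74.7 CPM in PD1 KO and 92.1 CPM in PD1 Het, or -0.63 (-0.74 to -0.53). P4ha1, a catalytic subunit of prolyl 4-hydroxylase, lay at 0.52 (0.27 to 0.77), and its partner P4hb at 0.12 (0.05 to 0.19). Serpinh1, the collagen chaperone HSP47, lay at -0.10 (-0.15 to -0.06), and Ppib, a prolyl isomerase, at 0.04 (-0.03 to 0.11). Pcolce, which enhances removal of the procollagen C-propeptide, lay at -0.25 (-0.33 to -0.17), and by CPM alone Serpinh1 and Pcolce had the opposite sign (0.23 and 0.08). Ctsk, a collagen-degrading protease, lay at 0.51 (0.27 to 0.76), with 73.4 CPM in rank group 5 of PD1 KO and 36.4 CPM in that of PD1 Het.

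**Figure D5:**
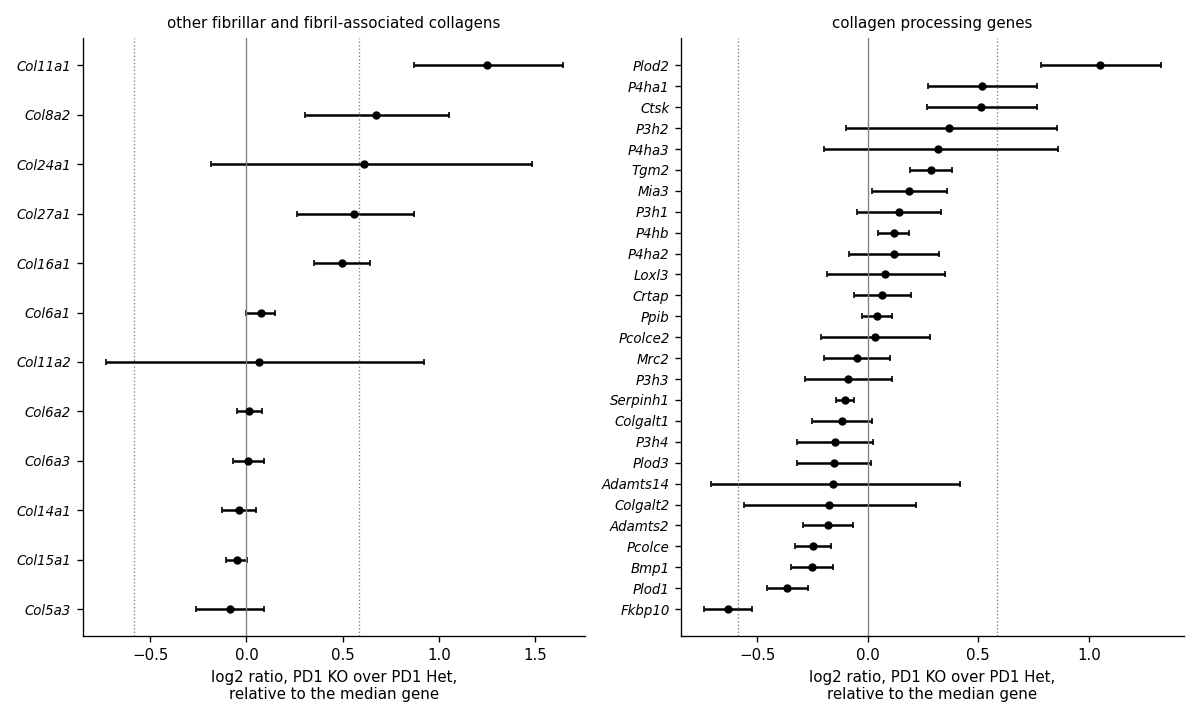
Log2 ratio of PD1 KO over PD1 Het relative to the median gene (horizontal axes) for 12 other collagens (left) and 27 collagen processing genes (right) with at least 30 UMIs, with 95% counting intervals and dotted lines at 1.5-fold. Most genes lie between the lines; Col11a1 (1.25) and Plod2 (1.05) lie highest and Fkbp10 (-0.63) lowest.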

How the data were processed

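Per the file headers, the authors deposited raw UMI counts per gene and spot for each section, made with Space Ranger 1.1.0. The submitters' processing notes name mm10 and GRCm38; no source used here gives the aligner settings, the annotation release or the rule that chose the spots. Spot positions and images were not used here. The 10 genes, the gene lists and the rule for named genes were chosen with earlier results of these data known, and named genes outside the rule were chosen after their values were seen.

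Spots under 500 UMIs were left out (8 in PD1 KO, 1 in PD1 Het). Counts of each section were added up over spots and divided by all its gene UMIs (CPM). Ratios are PD1 KO over PD1 Het, minus the median over genes with 100 UMIs or more in the sections combined where called relative. Intervals (95%) are exact Poisson for sums, Clopper-Pearson for shares and exact conditional for ratios of sums; the log2 difference of gene ratios has Woolf's interval in place of the planned exact one, and the difference of shares Newcombe's. A count of 0 allows up to 3 counts. All of them cover counting error only, so precision follows the UMIs behind a value. Genes named by rule were all 10, the 4 most abundant and the 4 with the largest absolute ratio of each of the 2 pathway lists (minimum 30 UMIs), and the 10 most alike genes (minimum 500 UMIs). Gene positions came from the GENCODE vM21 annotation (GRCm38), in which all 10 were matched by gene ID. Thinning used seed 1. Python 3.11.15, numpy 2.4.6, scipy 1.17.1, pandas 2.3.3, statsmodels 0.14.6 and matplotlib 3.10.9 were used, with edgeR for TMM factors, and the scripts were tested on simulated data.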

Additional observations from a re-analysis of the deposited data

How the results depend on the processing

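No paired analysis was possible because each genotype has 1 section. Of 60 values over all alternatives, 26 kept to their counting interval (or, for the count of genes, within 1.5 times), 32 moved and 2 reversed. Reversed means a change of sign only, and the intervals of these 2 covered both directions. The cause was not tested for any of them. The summed genes (0.19 on the log2 scale) were 0.21 with TMM factors, 0.21 with median-of-ratios size factors, 0.52 by CPM with no shift, 0.34 by CPM without mitochondrial genes, 0.25 against the median of genes with at least 1000 UMIs, 0.22 at a minimum of 5000 UMIs per spot, 0.37 with each spot thinned to 10000 UMIs, 0.21 without spots with over 5% red blood cell UMIs and 0.11 without the top twentieth of spots by scar rank. Genes at least 1.5-fold above the median gene (2) were 6 by CPM with no shift, 5 without mitochondrial genes and 5 after thinning. Type I over type III (0.47) was 0.52 at a minimum of 5000 UMIs, 0.52 at 10000, 0.43 without the spot with the most collagen UMIs in each section, 0.60 after thinning, 0.78 in rank group 5, 0.21 in the other 4 rank groups, 0.32 without the top twentieth, 0.51 with Col1a1 alone and 0.42 with Col1a2 alone. Type V over type I (-0.11) was -0.22 after thinning, -0.28 in rank group 5 and -0.040 without the top twentieth, and reversed to 0.060 in the other 4 rank groups. Lysyl oxidases over type I and III collagens (-0.43) were -0.54 after thinning, -0.74 in rank group 5, -0.22 in the other 4 rank groups, -0.34 without the top twentieth and -0.0016 without Loxl1. The share difference of rank group 5 (4.02 points) was 8.03 after thinning, 3.42 with Sparc added to the rank and 19.5 above 1 rank value common to both sections, at 50.8% in PD1 KO and 31.3% in PD1 Het. With spots ranked by fibroblast markers it was -0.080 points (-0.57 to 0.41), a change of sign with an interval that covers both directions. Alternatives chosen after the data were seen are those without the top twentieth, with 1 type I chain, without Loxl1, at 10000 UMIs per spot, without the 3 most abundant collagens and with a rank free of mitochondrial genes. Depth limits the PD1 Het values of Col8a1 (130 UMIs), Col12a1 (156) and Loxl2 (346) most.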
